A study of Mus musculus with 141 samples.

Results

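The aryl hydrocarbon (Ah) receptor and 7 genes tied to it were followed across 47 Collaborative Cross strains, inbred mice whose genomes are mosaics of the same founders, in 3 tissues: the liver, the lung and the kidney. The 8 genes were taken by name: *Ahr*, its partner *Arnt*, its repressor *Ahrr*, and the targets *Cyp1a1*, *Cyp1a2*, *Cyp1b1*, *Tiparp* and *Nqo1*. All 8 were found among the 24423 genes of the RNA-seq tables. Each strain gave 1 adult male of 8 to 12 weeks, and the 3 tissues of a strain came from that mouse, so that there were 3 groups of 47 libraries. All groups shared the same handling: the mice spent 6 hours a day on weekdays over 2 weeks in mesh chambers supplied with clear air and were bled out under Nembutal, and total RNA with ribosomal depletion was sequenced. No mouse is described as having received an Ah receptor ligand, no animal carried a transgene, and a strain difference cannot be told apart from a difference between single mice.

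The Ah receptor is a transcription factor that waits in the cytoplasm bound to Hsp90 and co-chaperones. When a planar aromatic compound such as a dioxin, a combustion product or a tryptophan metabolite binds, the receptor moves to the nucleus, pairs with Arnt and binds the xenobiotic response element, whose core reads GCGTG. The cytochrome P450 enzymes of the Cyp1 family, which oxidise such compounds, are its classical targets, while Ahrr and Tiparp feed back on it as repressors. Nqo1, a quinone reductase, answers to the Ah receptor and to the oxidative stress factor Nrf2.

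The promoters below show the core in the 250 bases before the start of *Cyp1a1*, *Cyp1b1*, *Tiparp* and the repressor *Ahrr*. The core (GCGTG, or CACGC where it lies on the other strand) is in capitals. The promoter of *Cyp1a2*, which has no core in this window, is printed as well. These promoters are reference sequences from RefSeq on GRCm38.p6, written 5′ to 3′ on the strand of the gene. The strains' own bases were not read.
*Cyp1a1*, chr9:57697363-57697612, plus strand: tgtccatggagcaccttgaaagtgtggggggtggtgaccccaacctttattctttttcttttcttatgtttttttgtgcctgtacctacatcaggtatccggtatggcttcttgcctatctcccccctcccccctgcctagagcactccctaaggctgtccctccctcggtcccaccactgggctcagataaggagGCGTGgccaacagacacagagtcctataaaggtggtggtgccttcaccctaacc
*Cyp1b1*, chr17:79715062-79715311, minus strand: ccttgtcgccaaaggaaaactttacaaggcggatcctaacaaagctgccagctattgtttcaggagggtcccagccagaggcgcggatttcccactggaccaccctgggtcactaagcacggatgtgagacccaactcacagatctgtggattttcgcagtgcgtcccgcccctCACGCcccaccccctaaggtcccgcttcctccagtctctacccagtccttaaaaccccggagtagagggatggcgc
*Tiparp*, chr3:65528197-65528446, plus strand: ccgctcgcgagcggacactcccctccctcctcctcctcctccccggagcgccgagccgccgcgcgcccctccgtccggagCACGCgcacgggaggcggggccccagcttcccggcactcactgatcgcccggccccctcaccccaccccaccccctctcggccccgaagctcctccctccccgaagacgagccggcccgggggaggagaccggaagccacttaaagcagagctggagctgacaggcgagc
*Ahrr*, chr13:74292332-74292581, minus strand: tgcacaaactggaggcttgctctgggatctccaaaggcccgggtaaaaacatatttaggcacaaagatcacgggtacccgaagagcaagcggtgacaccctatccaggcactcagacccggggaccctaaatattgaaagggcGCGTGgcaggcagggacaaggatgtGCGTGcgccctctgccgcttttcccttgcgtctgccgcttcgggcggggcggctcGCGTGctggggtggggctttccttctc
*Cyp1a2*, chr9:57683656-57683905, minus strand: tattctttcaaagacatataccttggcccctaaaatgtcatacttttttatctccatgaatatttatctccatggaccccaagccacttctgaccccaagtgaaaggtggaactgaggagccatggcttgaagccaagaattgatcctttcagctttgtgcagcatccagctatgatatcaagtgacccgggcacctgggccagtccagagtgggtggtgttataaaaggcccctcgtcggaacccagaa
The *Cyp1a1* core began 54 bases before the start, that of *Cyp1b1* 76 bases and that of *Tiparp* 170 bases. *Ahrr* held 3 cores, beginning 107, 82 and 27 bases before the start. *Arnt* held 1, *Nqo1* held 0, and *Ahr* was not among the promoters used here. Of 32851 mouse promoters of the same length, 28.2% held the core on either strand and 2.77% held it at least 3 times. A match is a string of letters, and binding was not measured. *Cyp1a2* and *Cyp1a1* are neighbours on chromosome 9, transcribed away from each other, with 13957 bases between them on NCBIM37, the build of the study (*Cyp1a2* chr9:57524744-57531462, *Cyp1a1* chr9:57545420-57551629). On that build the other members lie at chr12:36182646-36219710 (*Ahr*), chr3:95238310-95301162 (*Arnt*), chr13:74348566-74429779 (*Ahrr*), chr17:80106234-80114401 (*Cyp1b1*), chr3:65332332-65359067 (*Tiparp*) and chr8:109912125-109927106 (*Nqo1*).

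The median library held 10423382 counts for liver, 9338124 for lung and 8245850 for kidney, and the full range over tissues was 1738046 to 42158454. Values are given as CPM, that is counts relative to library size, with the library sizes corrected by TMM (a trimmed mean over genes). The TMM factors ran from 0.1272 (liver of CC033) to 2.625 (lung of CC053), and the lowest among the lungs was 0.2503 (CC015). A low factor raises the CPM of a library, so the extremes over strains depend on it. A library with 3 counts of a gene or fewer was taken not to resolve it, a limit that concerns counting error alone. The labels fit the defining genes of each tissue: the summed level of 7 hepatocyte genes ran from 42410 to 175300 CPM in liver, that of 6 alveolar genes from 3334 to 7941 CPM in lung and that of 5 proximal tubule genes from 12400 to 40910 CPM in kidney. The highest sums of these lists in the other tissues were 920.6, 101 and 1056 CPM. Of 3 blood markers, *Hba-a1* and *Hbb-b1* had a median of 3 counts or fewer in every tissue, while *Alas2* had more. The median of their summed level was 5.10 CPM in liver, 2.86 in lung and 0.740 in kidney. How much blood the tissues held was not tested.

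The members fell into those that could be followed and those that could not. *Cyp1a2*, *Cyp1b1*, *Tiparp* and *Nqo1* each have 1 transcript in the tables, while *Ahr*, *Arnt*, *Ahrr* and *Cyp1a1* each have 2, and the authors counted only reads with a unique alignment. Over all genes, those with 2 transcripts had a lower median of mean CPM than those with 1 (0.125 against 0.404 for liver, 0.531 against 2.73 for lung, 0.284 against 1.05 for kidney). Whether reads shared by 2 transcripts were lost for the 4 members was not tested, and their levels are not compared with those of other genes. *Ahrr* and *Cyp1a1* did not pass the filter of 1 CPM in 30% of the libraries. They entered no test between tissues in the main fit. The other 6 members passed the filter. A limma-voom fit without the filter took in *Ahrr* and *Cyp1a1*. It put *Ahrr* higher in liver than in lung (log2 fold change 0.99, adjusted p = 6.56e-07), although the liver libraries held 0 counts of it. The values of that fit for these 2 genes thus depend on how low counts are handled. In bulk tissue, fewer cells of a type and less RNA per cell cannot be told apart.

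*Ahr* was higher in lung and liver than in kidney. In liver it ran from 0.458 to 4.14 CPM (median 1.76, mean 1.78 ± 0.884 SD, n = 47), in lung from 0.775 to 5.16 (median 2.496, mean 2.66 ± 0.942) and in kidney from 0 to 1.05 (median 0.331, mean 0.344 ± 0.246). Lung exceeded kidney in 47 of 47 mice, 46 lung libraries lay above every kidney library, and liver exceeded kidney in 46 mice, with 34 liver libraries above every kidney library. The kidney values were thin: 31 of 47 kidney libraries had 3 counts of *Ahr* or fewer and 6 had 0. Pooled over the libraries without TMM, kidney held 162 counts, or 0.396 CPM (exact 95% Poisson interval 0.337 to 0.462), against 1.22 (1.13 to 1.32) in liver and 4.39 (4.19 to 4.59) in lung. These intervals cover counting error only. The log2 fold change was 2.46 ± 0.130 (SE) for liver against kidney (limma-voom, adjusted p = 9.15e-34) and 2.96 ± 0.130 for lung against kidney (adjusted p = 3.34e-40). Liver and lung overlapped over most of their range, with a log2 fold change of -0.50 ± 0.126 (adjusted p = 1.63e-04) that did not reach the threshold of 1. It passed it on total counts (-1.91), log2(TPM + 1) (-1.03) and log2(TPM + 0.1) (-1.89), scales on which the median of all genes moved the same way (-1.43, -1.21 and -1.52), and by TPM lung exceeded liver in 45 of 47 mice.

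*Arnt*, the partner that the receptor shares with the hypoxia factors, had the most even levels among the members that passed the filter. Liver values ran from 0.229 to 3.11 CPM with a median of 0.987, lung values from 0.530 to 2.39 with a median of 1.15, and kidney values from 0.262 to 2.12 with a median of 0.690. The 3 groups overlapped throughout. Log2 fold changes were -0.09 ± 0.114 for liver against lung (adjusted p = 0.461), 0.61 ± 0.115 for liver against kidney (adjusted p = 1.12e-06) and 0.69 ± 0.115 for lung against kidney (adjusted p = 3.69e-08), none of which reached the threshold of 1. Liver against lung passed it on total counts (-1.47) and log2(TPM + 0.1) (-1.42), and lung against kidney did on the same scales (1.11 and 1.1). *Arnt* counts were low, with 13 liver, 1 lung and 8 kidney libraries at 3 counts or fewer. Both ends of the liver range were among these, CC017 with 1 count and CC033 with 2.

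*Ahrr*, the repressor that competes for Arnt, was close to absent from the counts. It had 0 counts in liver, 5 in lung and 8 in kidney over all libraries, and no library held more than 1. Pooled over all liver libraries without TMM, the upper bound of the exact 95% Poisson interval was 0.00722 CPM.

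*Cyp1a1*, the enzyme best known for its strong induction on exposure, was likewise not resolved in nearly every library. The 47 lung libraries held 49 counts together, the liver libraries 7 and the kidney libraries 9. A count was seen in 23 lung, 6 liver and 7 kidney libraries, and the most in a single library was 6, in a lung. By TMM-scaled CPM the highest value was 0.765, in the lung of CC015. The pooled level was 0.114 CPM in lung (exact 95% Poisson interval 0.0840 to 0.1501), 0.0137 in liver (0.00551 to 0.0282) and 0.0220 in kidney (0.0101 to 0.0417), all without TMM. On these unscaled totals the lung interval lay above the other two. The intervals cover counting error only and leave out the spread between mice. The coefficient of variation over the lung libraries was 175.5%, where counting alone would give 104.2%. With TMM the mean over lung libraries was 0.0847 CPM, against 0.0222 for the liver and 0.0186 for the kidney. The values are given without a test between tissues, since 44 lung libraries and all liver and kidney libraries were at 3 counts or fewer.

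*Cyp1a2*, the Cyp1 enzyme that the liver makes without induction and that clears caffeine and oestrogens, was abundant in liver. It ran from 231 to 872 CPM there (median 505, mean 529 ± 155 SD, n = 47), with 379 to 15058 counts per library. In lung it ran from 0 to 1.91 CPM (median 0.197) and in kidney from 0 to 4.37 (median 0.207). Every liver library lay above every library of the other tissues. Its log2 fold change reached 10.96 ± 0.113 in liver against lung (adjusted p = 3.76e-96) and 10.86 ± 0.118 for liver against kidney (adjusted p = 8.51e-94), where 29 lung and 32 kidney libraries had 3 counts or fewer, so that the size of these fitted values depends on how low counts are handled.

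The few *Cyp1a2* counts outside the liver were set beside 7 hepatocyte genes. Pooled without TMM, *Cyp1a2* stood at 334 CPM in liver, 0.484 in lung and 0.337 in kidney, which made 0.145% and 0.101% of its liver level. The hepatocyte genes *Alb*, *Ahsg*, *Fgb*, *Fga*, *Hpx*, *Apoc3* and *Serpinc1* stood in lung at 0.139% to 0.284% of their liver level (median 0.180%) and in kidney at 0.0966% to 1.5% (median 0.124%). Both upper ends were those of *Apoc3*, which had 6 counts over all lung libraries, 30 over all kidney libraries and 4.89 CPM in liver. The next highest were *Hpx* at 0.216% in lung and *Fga* at 0.736% in kidney. The share for *Cyp1a2* thus lay within the range of the hepatocyte genes in both tissues, with or without *Apoc3*. Lung and kidney did not differ beyond their spread (log2 fold change -0.10 ± 0.104, adjusted p = 0.351). Whether these counts came from lung and kidney cells was not tested.

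**Figure D1:**
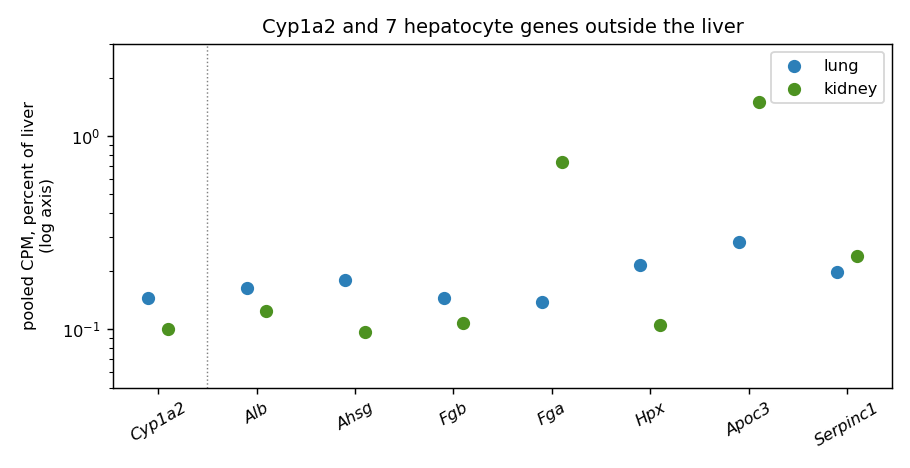
Pooled CPM in lung (blue) and kidney (green) as a percent of the pooled CPM in liver, on a log axis, for *Cyp1a2* and, right of the dotted line, 7 hepatocyte genes; each point is 1 gene in 1 tissue, over 47 libraries. *Cyp1a2* stands at 0.145% in lung and 0.101% in kidney, among the hepatocyte genes.

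*Cyp1b1*, which metabolises oestrogens and polycyclic hydrocarbons and is known mainly from tissues other than the liver, showed the opposite order. Liver values ran from 0.458 to 8.70 CPM with a median of 1.44, lung values from 3.56 to 21.9 with a median of 8.55, and kidney values from 18.3 to 72.7 with a median of 27.4. The order kidney, lung, liver held in 46 of 47 mice, the exception being CC006, whose liver value of 8.70 was the highest of the 47 livers. No kidney library overlapped with liver, 43 kidney libraries lay above every lung library, and 23 lung libraries lay above every liver library. Log2 fold changes were -2.33 ± 0.0866 for liver against lung (adjusted p = 2.72e-46), -4.05 ± 0.0870 for liver against kidney (adjusted p = 5.27e-67) and -1.72 ± 0.0793 for lung against kidney (adjusted p = 1.58e-38).

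*Tiparp*, a mono-ADP-ribosyltransferase that represses the receptor, was lowest in liver. Liver values ran from 9.64 to 29.9 CPM with a median of 17.1 and a mean of 17.8 ± 5.05 SD, lung values from 24.3 to 68.9 with a median of 46.2 and a mean of 45.4 ± 9.01, and kidney values from 36.1 to 66.5 with a median of 49.95 and a mean of 50.2 ± 8.07. All 47 mice had less *Tiparp* in liver than in lung and than in kidney, and 45 lung libraries lay above every liver library. Log2 fold changes were -1.31 ± 0.0571 for liver against lung (adjusted p = 1.28e-40) and -1.42 ± 0.0571 for liver against kidney (adjusted p = 3.78e-43). Lung and kidney overlapped widely, with a log2 fold change of -0.11 ± 0.0565 (adjusted p = 0.0699).

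*Nqo1* was highest in kidney and ranged widely over the livers. Liver values ran from 0.579 to 30.01 CPM with a median of 6.24 and a mean of 9.17 ± 6.60 SD, lung values from 1.15 to 20.9 with a median of 5.94 and a mean of 6.85 ± 3.75, and kidney values from 17.9 to 54.6 with a median of 33.4 and a mean of 33.1 ± 8.77. Kidney exceeded lung in 47 mice and liver in 46, and 43 kidney libraries lay above every lung library. Log2 fold changes were -1.91 ± 0.128 for liver against kidney (adjusted p = 1.69e-26) and -2.24 ± 0.127 for lung against kidney (adjusted p = 1.42e-31). Liver exceeded lung in 30 mice, with a log2 fold change of 0.33 ± 0.129 (adjusted p = 0.0124) that did not reach the threshold of 1.

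**Figure D2:**
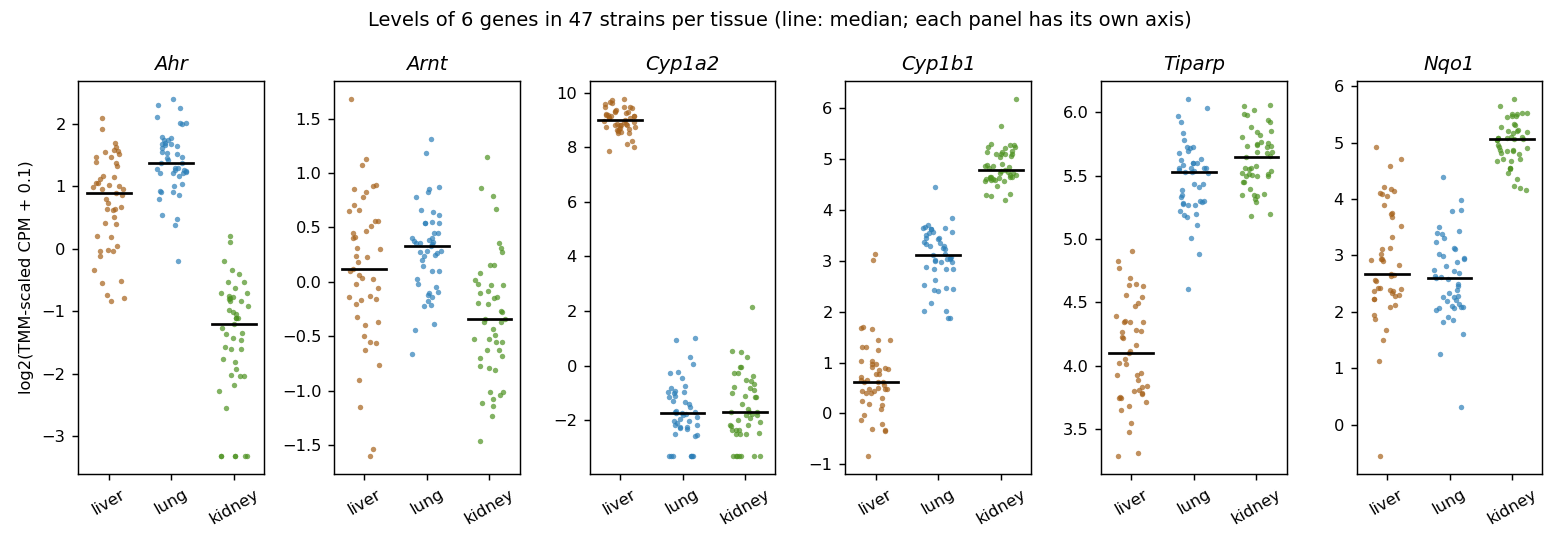
Level of 6 members in liver, lung and kidney as log2(TMM-scaled CPM + 0.1), 1 panel per gene with its own axis; each point is the mouse of 1 of 47 strains and the line is the median. The *Cyp1a2* livers stand apart from both other tissues, *Cyp1b1* steps up from liver (median 1.44 CPM) to lung (8.55) to kidney (27.4), and *Nqo1* in liver runs from 0.579 to 30.01 CPM.

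Set out by comparison, 1 member was higher in liver than in lung (*Cyp1a2*) and 2 were higher in lung (*Cyp1b1* and *Tiparp*), where 23.9% and 31% of the 12127 tested genes were called in the same directions. Between liver and kidney, 2 members were higher in liver (*Ahr* and *Cyp1a2*) and 3 in kidney (*Cyp1b1*, *Tiparp* and *Nqo1*), with a background of 15.6% and 20.8%. Between lung and kidney, 1 member was higher in lung (*Ahr*) and 2 in kidney (*Cyp1b1* and *Nqo1*), with a background of 25.5% and 20.6%. Differences between tissues are thus common over all genes, and the count of members called is not a property of the members. What the values show is that the targets did not share an order: the liver ranked first for *Cyp1a2*, the kidney for *Cyp1b1* and *Nqo1*, and for *Tiparp* lung and kidney did not differ beyond the threshold.

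Directions close to 0 turned on how libraries were scaled. The median log2 fold change over all tested genes for liver against lung was -0.06 with TMM, -1.43 on total counts and -1.21 on log2(TPM + 1). For liver against kidney it was -0.95 on total counts and for lung against kidney 0.46. *Nqo1* in liver against lung was 0.33 with TMM and -1.05 on total counts, that is 0.39 and 0.38 above the median of all genes. *Arnt* in liver against kidney was 0.61 and -0.36 (0.61 and 0.59 above that median), and *Tiparp* in lung against kidney was -0.11 and 0.33 (0.15 and 0.13 below it, at -0.15 and -0.13). The members past the threshold with TMM kept their direction on both other scales.

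**Figure D3:**
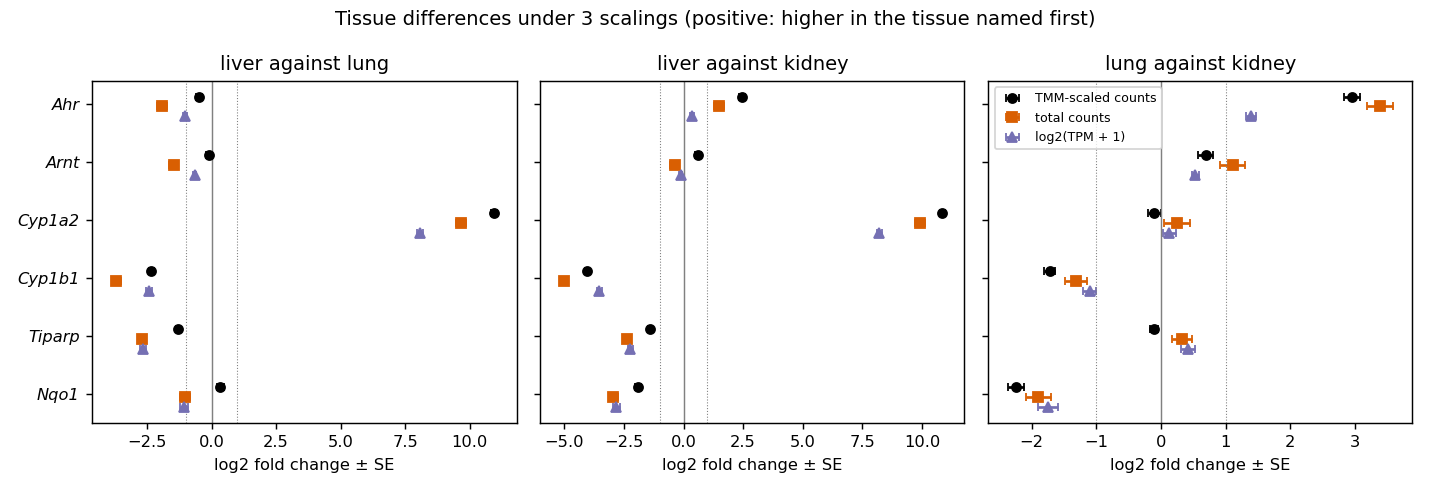
Log2 fold changes with SE of 6 members for the 3 tissue pairs, positive where the tissue named first is higher, on TMM-scaled counts (black circles), total counts (orange squares) and log2(TPM + 1) (purple triangles); dotted lines mark 1 and -1. *Nqo1* in liver against lung changes side, from 0.33 to -1.05 on total counts and -1.07 on log2(TPM + 1), while *Cyp1a2* and *Cyp1b1* keep theirs wherever liver is compared.

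Levels of different genes were compared per transcript length, as TPM, for the 4 targets with 1 transcript. In liver, median TPM was 434 for *Cyp1a2*, 7.15 for *Tiparp*, 7.03 for *Nqo1* and 0.470 for *Cyp1b1*. The lung order was *Tiparp* with 52.2, *Nqo1* with 17.4, *Cyp1b1* with 7.80 and *Cyp1a2* with 0.480. Kidney was led by *Nqo1* with 67.6, followed by *Tiparp* with 38.1, *Cyp1b1* with 17.5 and *Cyp1a2* with 0.330. *Tiparp* and *Nqo1* in liver did not differ beyond their spread, with ranges of 1.69 to 13.4 and 0.320 to 41.9 TPM.

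The other genes of the pathway were read from 4 lists. Of 12 genes of the receptor's complex (chaperones, the relative *Arnt2*, coactivators and *Hif1a*), 9 were tested. None was higher in liver than in lung or in kidney, or in lung than in kidney, and 2, 1 and 1 were higher in the tissue named second (median log2 fold change -0.62, -0.31 and -0.24, against -0.055, -0.003 and 0.039 over all genes). Among all 12127 tested genes the background was 23.9% higher and 31% lower for liver against lung, 15.6% and 20.8% for liver against kidney, and 25.5% and 20.6% for lung against kidney. No list was tested as a group. *Arnt2*, an Arnt relative known from brain and kidney, had a median of 35.5 CPM in kidney, 1.25 in lung and 0 in liver (lung against kidney -4.74 ± 0.0982, adjusted p = 1.73e-68). The coactivator *Ep300* was higher in lung than in liver (-1.11 ± 0.0395, adjusted p = 7.67e-48).

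Of 18 further reported targets, 14 were tested. For liver against lung 7 were higher in liver and 4 in lung (median 1.18), for liver against kidney 7 and 3 (median 1.35), and for lung against kidney 5 in lung and 3 in kidney (median -0.20). The background was 23.9% and 31% of all genes for liver against lung and 15.6% and 20.8% for liver against kidney. For lung against kidney it was 25.5% and 20.6%. The median over all genes was -0.055, -0.003 and 0.039 in the same order. Beside these shares the counts for lung against kidney are not a result about the list. Nor are the counts higher in lung or in kidney than in liver. *Igfbp1*, which binds insulin-like growth factors, was highest in liver with a median of 56.0 CPM (7.31 in kidney and 0.0678 in lung). *Cyp2s1*, a P450 of epithelia, was highest in lung with 56.2 CPM (8.98 in kidney and 0.688 in liver), as was *Ptgs2*, the inducible cyclooxygenase, with 17.7 CPM (1.16 in kidney and 0 in liver). *Gsta2*, a glutathione transferase, was higher in kidney than in lung (lung against kidney -4.72 ± 0.198, adjusted p = 8.19e-42).

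All 12 genes of an Nrf2 list, the program that *Nqo1* also belongs to, were tested. For liver against lung 6 were higher in liver and 2 in lung (median 0.94), for liver against kidney 2 and 1 (median 0.30), and for lung against kidney 2 in lung and 5 in kidney (median 0.01). Beside the background of 15.6% and 20.8%, the counts for liver against kidney are not a result about the list, and for the other comparisons the background was 23.9% and 31%, and 25.5% and 20.6%. *Gclm*, a subunit of the enzyme that starts glutathione synthesis, had medians of 148 CPM in liver, 17.3 in lung and 164 in kidney. *Gsr*, glutathione reductase, was higher in kidney than in lung with 167.5 against 38.1 CPM. *Slc7a11*, the cystine transporter, had a median of 4.81 CPM in lung, 0.395 in kidney and 0.234 in liver. *Ephx1* had 14.6 CPM in liver, 3.86 in lung and 1.42 in kidney, *G6pdx* was higher in kidney than in liver (25.6 against 8.60 CPM), and *Keap1*, the inhibitor of Nrf2, was higher in liver (2.73 against 1.37 CPM).

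Enzymes of the tryptophan route, which yields kynurenine and other Ah receptor ligands, formed the last list. Of 8 genes 6 were tested, and 6 were higher in liver than in lung (median 6.98), 5 in liver than in kidney (median 2.60) and 4 in kidney than in lung (median -4.50), where the background was 23.9%, 15.6% and 20.6%. *Tdo2*, which opens the tryptophan ring, had a median of 1840 CPM in liver, 2.48 in lung and 0.995 in kidney. *Haao* stood at 396, 1.95 and 121 CPM, *Ido2* at 63.0, 0.234 and 6.32 in the same order, and *Afmid* was higher in kidney than in lung (99.5 against 3.12 CPM). *Kynu* was higher in liver than in kidney (99.0 against 2.38 CPM).

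Between the strains, *Nqo1* in liver spanned a wide range. The highest liver (CC024, 30.01 CPM and 325 counts) was 51.8 times the lowest (CC029, 0.579 CPM and 1 count), with a coefficient of variation (CV) of 72.0% where counting alone would give 15.7%. The size of that ratio rests on the single count of CC029, since the next lowest liver, CC015, had 2.10 CPM. The CV lay at the 91.2 percentile of 2473 genes within a factor of 2 of its median. In lung the CV was 54.8% (counting 11.6%) and in kidney 26.5% (counting 6.46%). The mouse of CC015 had the lowest *Nqo1* in lung (1.15 CPM, 3 counts) and in kidney (17.9 CPM, 134 counts) and the second lowest in liver (2.10 CPM, 12 counts). CC024, highest in liver, ranked 45 of 47 in lung and 28 in kidney.

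*Cyp1b1* in liver had a CV of 83.0% (counting 35.1%), with CC006 at 8.70 CPM and CC016 at 8.01 far above the next liver, CC039 at 3.16. Neither was at the top in the other tissues: CC006 ranked 10 in lung and 13 in kidney, and CC016 ranked 33 and 40. The CV of *Cyp1b1* was 38.2% in lung (counting 10.1%) and 30.3% in kidney (counting 6.77%). *Tiparp* had the lowest CV of the members that passed the filter: 28.3% (liver), 19.9% (lung) and 16.1% (kidney). Counting alone would give 11.3%, 4.50% and 5.24% in the same order. Among genes within a factor of 2 of its median, these CVs ranked at percentiles 68.3, 68.5 and 46.1. For its level *Tiparp* was thus not unusually steady. *Arnt* ranked lower on that measure, at percentiles 17.9, 10.3 and 26.4. *Cyp1a2* in liver had a CV of 29.4% (counting 2.07%), from 231 CPM in CC002 to 872 in CC021. The spread of *Arnt* was little wider than counting allows, at 49.8% in liver (counting 45.6%), 31.5% in lung (28.0%) and 49.8% in kidney (42.4%). *Ahr* had 49.7% in liver (counting 35.7%), 35.4% in lung (18.6%) and 71.5% in kidney (63.3%). With 1 mouse per strain no test of strain was possible.

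Whether a mouse that was high in one tissue was high in another was tested for 13 pairs. Correlations used rank inverse normal values of TMM-normalized TPM over 47 strains and 100000 permutations, with Benjamini-Hochberg adjustment over the 13. *Nqo1* correlated between liver and lung (Pearson r = 0.414, permutation p = 0.00399, adjusted p = 0.033; Spearman rho = 0.458, permutation p = 0.00138, adjusted p = 0.0179). Without the 2 strains farthest from the liver median, CC029 and CC024, r was 0.396. *Cyp1b1* correlated between lung and kidney (r = 0.402, permutation p = 0.00507, adjusted p = 0.033; rho = 0.400, permutation p = 0.00559, adjusted p = 0.0363), and r was 0.396 without CC040 and CC024. Leaving out any single strain kept r between 0.354 and 0.520 for *Nqo1* and between 0.325 and 0.446 for *Cyp1b1*, the lowest values being those without CC015 and without CC062. The other 11 pairs did not pass. *Arnt* between lung and kidney had r = 0.285 (adjusted p = 0.228 by permutation). Without the 2 strains farthest from its lung median, CC023 and CC017, it passed with r = 0.393 (adjusted p = 0.0339 by permutation). *Nqo1* of kidney had r of 0.083 with liver and -0.001 with lung (permutation p = 0.58 and 0.997). *Tiparp* ranged from -0.208 to 0.004 over its 3 tissue pairs, and *Ahr* of liver and lung had r = 0.044 (permutation p = 0.767). On TPM without TMM neither correlation passed (*Nqo1* r = 0.326, adjusted p = 0.322; *Cyp1b1* r = 0.174, adjusted p = 0.791).

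**Figure D4:**
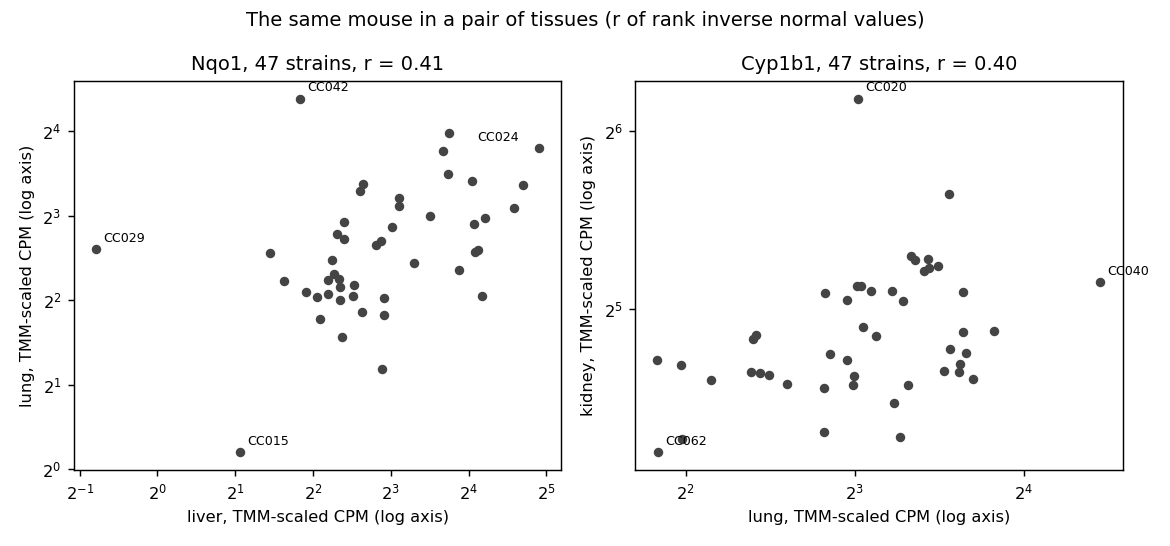
*Nqo1* in liver against lung (left) and *Cyp1b1* in lung against kidney (right), in TMM-scaled CPM on log axes; each point is the mouse of 1 of 47 strains, and strains at the ends are named. CC015 is low in *Nqo1* in both tissues (2.10 and 1.15 CPM) while CC029 is low in liver alone (0.579 and 6.07 CPM). The lung value of CC015 rests on 3 counts and the liver value of CC029 on 1, too few to resolve them.

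Within a tissue the receptor and its targets did not vary together past the threshold. Of 31 pairs of members (15 in liver, 10 in lung and 6 in kidney), 0 passed an adjusted p of 0.05 and 1 had an unadjusted permutation p under 0.05. That pair was *Arnt* with *Cyp1b1* in liver (r = 0.391, permutation p = 0.00648, adjusted p = 0.201; rho = 0.316, permutation p = 0.0306, adjusted p = 0.448), and r fell to 0.249 without CC033 and CC017. *Ahr* with *Cyp1a2* in liver had r = 0.287 (permutation p = 0.051, adjusted p = 0.623; rho = 0.296, permutation p = 0.0433). *Ahr* with *Tiparp* had r = 0.073 in liver and -0.160 in lung, and *Cyp1b1* with *Tiparp*, whose promoters both hold the core printed above, had r = 0.213 in liver, -0.058 in lung and -0.211 in kidney. The absence of TMM changed this: on TPM as deposited, 19 of the 31 pairs passed, all with a positive r. Of 22 differences of r between tissues 0 passed, 1 had an unadjusted permutation p under 0.05 (*Arnt* with *Cyp1b1*, liver 0.391 and lung -0.091, permutation p = 0.0397), and the lowest adjusted p was 0.548.

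Of 85 correlations between a member and the mean rank score of a list of cell type markers, 4 passed, and they concerned *Cyp1a2* and *Tiparp*. On log2(CPM + 1) 8 passed, which added *Nqo1* with the leukocyte list in liver (r = 0.414, adjusted p = 0.0484 by permutation) and *Cyp1b1* in kidney with the leukocyte (0.457, adjusted p = 0.0284 by permutation), proximal tubule (-0.449, 0.0384) and mesenchyme (0.441, 0.0488) lists. Without the 2 strains farthest from the *Cyp1b1* median the last 3 were 0.329, -0.325 and 0.198. *Cyp1a2* in liver rose with a list of 6 pericentral hepatocyte genes (*Glul*, *Cyp2e1*, *Oat*, *Lect2*, *Rhbg* and *Axin2*), with r = 0.606 (permutation p = 2e-05, adjusted p = 8.5e-04; rho = 0.598, permutation p = 5e-05). Cyp1a2 protein is itself known from the cells around the central vein. With 4 periportal genes r was -0.322 (adjusted p = 0.163) and with 7 general hepatocyte genes -0.327 (adjusted p = 0.163). Without CC002 and CC041, the strains farthest from the median, r with the pericentral list was 0.600.

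*Tiparp* fell as mesenchyme markers rose in lung (8 genes, r = -0.501, permutation p = 3.2e-04, adjusted p = 0.00907; rho = -0.440, permutation p = 0.00219) and in kidney (5 of 8 genes, r = -0.493, permutation p = 4.8e-04, adjusted p = 0.0102; rho = -0.456, permutation p = 0.0017). In kidney it also fell as the leukocyte score rose (r = -0.619, permutation p = 1e-05, the smallest that 100000 permutations can give, adjusted p = 8.5e-04; rho = -0.622, permutation p = 2e-05), where 2 of 7 genes, *Cd68* and *Lyz2*, could be used. Without the 2 strains farthest from the *Tiparp* median these were -0.488, -0.418 and -0.641. Leaving out any single strain kept them between -0.680 and -0.430, and the partial correlations given the TMM factor were -0.505, -0.465 and -0.617. The part of cell composition in the strain differences of *Tiparp* and *Cyp1a2* was not tested.

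**Figure D5:**
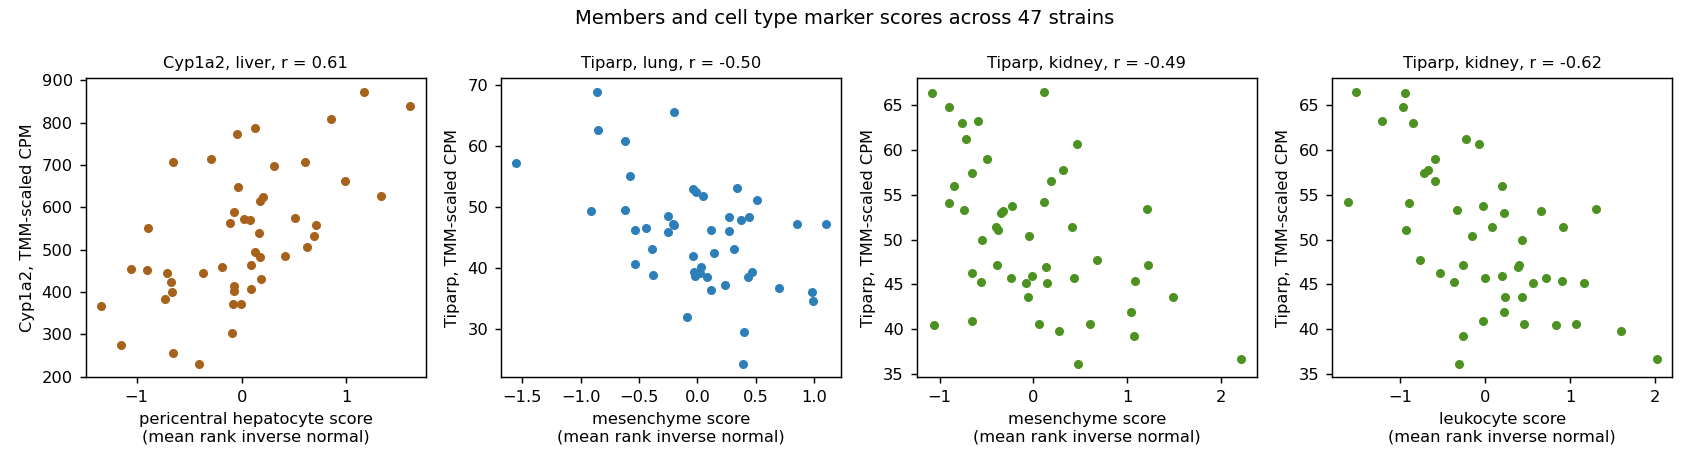
*Cyp1a2* in liver against the pericentral hepatocyte score, and *Tiparp* against the mesenchyme score in lung and kidney and the leukocyte score in kidney; each point is the mouse of 1 of 47 strains, the y axes are TMM-scaled CPM, and the scores are means of rank inverse normal values over the list. *Cyp1a2* rises with its score (r = 0.61) and *Tiparp* falls with each of its 3 (r = -0.50, -0.49 and -0.62).

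The genes most like each member over the 47 strains were sought by Spearman rho (9541 liver genes, 10719 lung genes and 10145 kidney genes), as a description. For *Cyp1a2* in liver they were *Cyp2e1* (rho = 0.677), *Smarca2* (0.627) and *Glul* (0.595), 2 of them on the pericentral list above. *Tiparp* was closest to *Zbtb6* (0.670), *Zfp24* and *Gabpa* in liver, to *Ppp4r2* (0.800), *Avl9* (0.799) and *Esco1* (0.797) in lung, and to *Usp9x* (0.634), *Atxn3* and *Fdx1* in kidney. *Nqo1* was closest to *Ednra* (0.584), *Pikfyve* and *Vcpkmt* in liver, to *Plcxd2* (0.513), *Tpi1* and *Wdr74* in lung and to *Aldh3b1* (0.607), *Gpt* and *Farsa* in kidney. *Ahr* was closest to *Supt4a* (0.551), *Rhot1* and *Slc22a30* in liver and to *Prdm1* (0.598), *Ap3s2* and *Bcdin3d* in lung, and *Cyp1b1* in lung to *Sorbs2os* (0.536), *Sox2* and *Muc4*. None of these genes was another member, and no other pair of member and tissue was searched. All points share the library, so depth and composition are common to both genes of each pair.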

How the data were processed

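RNA was measured in 141 libraries from 3 tissues. Single-end reads of 50 bases were mapped by the authors to strain-specific pseudo-genomes (mm9/Build37, RefSeq) with STAR 2.5.3a, then passed to RSEM. The expected count deposited by the authors was rounded before use (25 values were not whole), the TPM deposited by the authors was used for correlations and comparisons between genes, and their deposited FPKM column was left aside. Genes over 1 CPM in at least 30% of libraries were compared by limma-voom (limma 3.58.1, edgeR 4.0.16, R 4.3.3) with TMM, tissue and strain, and were called at q ≤ 0.1 with a log2 fold change of 1 or more in either direction. Strain is a replicate block, since each strain's 3 tissues are of 1 mouse: such libraries deviated together, with a median r over genes of 0.179 (liver and lung), 0.210 (liver and kidney) and 0.215 (lung and kidney). The study's own models included sequencing batch; the labels do not assign it, so the fits and correlations here ignore it, and its part in them was not tested. Correlations used the Blom offset 0.375 and members with over 3 counts in 50% of the libraries of a tissue. Named genes are the 8 members, the 3 most changed called genes of each list and tissue pair, the 3 most alike genes and the markers. The result of 1 of these genes is not reported here. Members and lists were chosen with earlier results of these data known. Other steps ran in Python 3.11.15 (scipy 1.17.1, numpy 2.4.6, matplotlib 3.10.9, pandas 2.3.3). The steps were tested on simulated data. DESeq2 1.42.0 and edgeR tests, other scalings, filters and left-out strains were alternatives.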

Additional observations from a re-analysis of the deposited data

How the results depend on the processing

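Members past the threshold kept their direction under every alternative run, and the count called in liver against kidney stayed within 1.5 times of 5. The count of 3 in liver against lung became 5 without a fold-change threshold and on log2(TPM + 1), and 6 on log2(TPM + 0.1) and on total counts, and the 3 in lung against kidney became 5 without a fold-change threshold. *Ahr* in liver against kidney fell under the threshold on log2(TPM + 1), at 0.36. Without the replicate block (the paired fit by strain), 3, 5 and 3 members were called, as with it. Of the differences under the threshold, 4 changed sign with the scaling, while *Ahr* and *Arnt* in liver against lung and *Arnt* in lung against kidney kept theirs. *Nqo1* in liver against lung was -1.05 on total counts, -1.07 on log2(TPM + 1) and -1.18 on log2(TPM + 0.1). *Arnt* in liver against kidney was -0.36, -0.12 and -0.32 in the same order, *Tiparp* in lung against kidney 0.33, 0.41 and 0.42, and *Cyp1a2* there 0.25, 0.13 and 0.30. With DESeq2 size factors *Tiparp* and *Cyp1a2* in lung against kidney were both 0.03, and with the DESeq2 test *Tiparp* was 0.05. The median of all genes moved the same way in each of these cases.

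On TPM without TMM, 19 pairs of members within a tissue passed in place of 0, and pairs under the threshold turned positive: *Cyp1a2* with *Tiparp* in liver (0.363), in lung *Ahr* with *Arnt* (0.433) and with *Tiparp* (0.531), *Cyp1b1* with *Tiparp* (0.437) and *Tiparp* with *Nqo1* (0.400), and in kidney *Tiparp* with *Cyp1b1* (0.465) and with *Nqo1* (0.556). *Ahr* with *Nqo1* in lung was -0.051 without CC032 and CC042, against 0.001. The 2 correlations between tissues became 0 on TPM without TMM and 1 on log2(CPM + 1), where *Cyp1b1* had an adjusted permutation p of 0.0501, and the 4 with marker lists became 8 on log2(CPM + 1), which added *Cyp1b1* and *Nqo1* to *Cyp1a2* and *Tiparp*. *Arnt* between lung and kidney was added without the 2 strains farthest from its lung median. The cause of these changes was not tested. Total counts, the partial correlations given the TMM factor and those of the marker lists given depth, and the removal of the strains of the deepest and the shallowest library were chosen after seeing the data. Counts were too low to resolve *Ahrr* and *Cyp1a1* in most libraries of every tissue, and *Ahr* in most kidney libraries. The part of depth in these low counts was not tested.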
